A study of Arabidopsis thaliana with 5 samples.

Results

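The genes described here are 6 Arabidopsis genes that bear on carbon supply: MCCA (AT1G03090), SWEET17 (AT4G15920), ATSPS4F (AT4G10120), AT2G20670, AT1G54740 and AT2G30600. Every probe set that named one of them alone was taken, which gave 7 of the 8247 probe sets and 6 of the 3602 named genes on the array. No member shared a probe set with another named gene. The genes were chosen by their measured intensities on these same arrays, mostly by the difference between the CAMTA.6.2 and the Col-0 array. Their differences are therefore a description with no test, and they give no independent support to any statement about carbon supply.

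A plant stores part of the carbon it fixes by day and uses it at night as sucrose, which moves from source leaves to the other organs. Sugar is held in the vacuole and crosses the vacuolar membrane through dedicated carriers. When sugar runs short, as in prolonged darkness, the SnRK1 kinase pathway is activated, growth genes are repressed, and genes for the breakdown of amino acids, lipids and proteins are induced. Leucine and the other branched-chain amino acids are then burned in mitochondria in place of sugar. Such transcripts are commonly read as markers of carbon status, and many of them also follow the time of day.

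Expression was measured on 5 one-colour Affymetrix arrays, each with RNA from whole plants, and each of the 5 groups had 1 array. The CAMTA.6.2 line is a T-DNA insertion line in Col-0 made with the vector pROK2, and its label says that it still segregates and is in the T3 generation. CAMTA.1.2 is also a T3 T-DNA line in Col-0 made with pROK2. CAMTA.1 is a line in the accession WS, and the labels do not describe how it was modified. The 2 arrays with no line named were from WS and from Col-0. CAMTA genes encode calmodulin-binding transcription activators, and the labels give only the line names, not the disrupted gene. All plants were at growth stage 1.04 and grew on Gamborg's B-5 medium at 18 degrees and 65% humidity, with 16 h light and 8 h dark. Whether the medium held sugar, at what hour plants were harvested, and how many plants went into a sample are not given in the sources used here.

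The source names of the samples did not follow the lines and accessions in their characteristics. The array labelled Col-0 carries KO1 in its source name and the one labelled CAMTA.6.2 carries WSC, so each group below is the array labelled that way. With 1 array per group no difference has a replicate error, the number of arrays limits the precision, and a biological difference cannot be told apart from one between single samples. Values are intensities scaled to a common median. An intensity of 18.1 served as a floor, below which values were given no order, and 2-fold was the size at which arrays were called different. A fold with 1 array at the floor is a lower limit on the size. The share of probe sets above the floor was 59.3% to 60.7% per array. The scanner background averaged 92.64 on the WS array and 60.73 on the Col-0 array, with the 3 line arrays between them. In whole plants, fewer cells of a type and less RNA per cell cannot be told apart.

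Of the 6 genes, 5 had their highest value on the CAMTA.6.2 array, which was the highest of the 5 arrays for 22.9% of the 5635 probe sets that exceeded the floor somewhere. The 4 genes MCCA, SWEET17, AT2G20670 and AT2G30600 were at least 2-fold higher there than on every other array, as were 1.19% of those probe sets. ATSPS4F went the other way and was under the floor on the CAMTA.6.2 and CAMTA.1 arrays. On the CAMTA.1.2 array 3 of the 6 genes had their lowest value, as had 20.9% of those probe sets. That share was taken before values were raised to the floor, so it also counts lowest values under the floor. Since the genes were chosen for these levels, nothing is read from the shares. Over the 5 arrays 4 of the 6 genes stayed above the floor throughout, and the exceptions were SWEET17 on the WS array and ATSPS4F on the 2 line arrays named above.

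**Figure D1:**
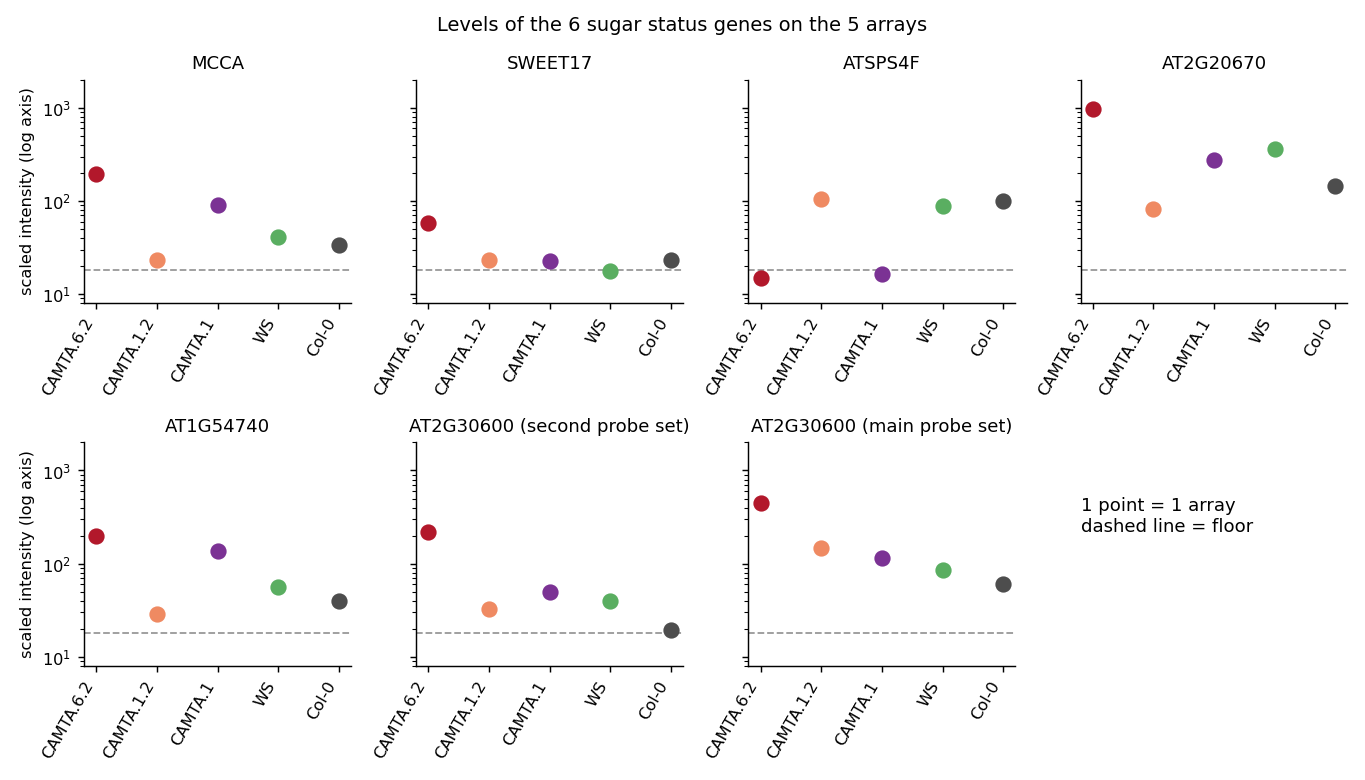
Scaled intensity (log axis) of the 7 probe sets of the 6 genes on the 5 arrays, with 1 point per array and the floor of 18.1 as a dashed line. The CAMTA.6.2 array is the highest in every panel but that of ATSPS4F, where CAMTA.6.2 and CAMTA.1 lie under the floor.

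AT2G20670 and AT1G54740 are known by their loci alone in the annotation used. Both were placed here on the list of sugar-repressed and dark-induced genes. AT2G20670 had the highest single intensity of the members, with 969 on the CAMTA.6.2 array, 81.1 on CAMTA.1.2, 273 on CAMTA.1, 364 on WS and 145 on Col-0. The CAMTA.6.2 value was 2.66-fold above the next array, and the lowest and highest arrays were 11.9-fold apart. Both arrays labelled WS lay between CAMTA.6.2 and Col-0.

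AT1G54740 had intensities of 199 on the CAMTA.6.2 array, 29.2 on CAMTA.1.2, 135 on CAMTA.1, 56.9 on WS and 39.8 on Col-0. CAMTA.6.2 and CAMTA.1 stood together at the top, 1.47-fold apart, and CAMTA.1 was 2.38-fold above WS, the next array. The 3 lower arrays followed in steps of less than 1.5-fold, so their order is not secure.

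AT2G30600 encodes a protein with a BTB/POZ domain, a fold through which proteins bind one another, and it was placed on the same list. Its brighter probe set read 447 on the CAMTA.6.2 array, 146 on CAMTA.1.2, 114 on CAMTA.1, 85.5 on WS and 60.3 on Col-0. The dimmer one read 219 on CAMTA.6.2, 32.5 on CAMTA.1.2, 49.6 on CAMTA.1, 39.9 on WS and 19.6 on Col-0. Both put CAMTA.6.2 first and Col-0 last. They disagreed on the size, 7.42-fold on the brighter and 11.2-fold on the dimmer probe set for CAMTA.6.2 over Col-0, and on the place of CAMTA.1.2, which ranked next after CAMTA.6.2 on the brighter but below CAMTA.1 and WS on the dimmer. The annotation lists AT2G30610 as a former name of this locus.

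MCCA encodes a subunit of methylcrotonoyl-CoA carboxylase, the mitochondrial enzyme of leucine breakdown that carries biotin. Its intensity was 194 on the CAMTA.6.2 array, 23.5 on CAMTA.1.2, 90.8 on CAMTA.1, 40.6 on WS and 33.4 on Col-0. The array order was that of AT1G54740, with CAMTA.6.2 2.14-fold above CAMTA.1 and CAMTA.1 2.23-fold above WS. The lowest 3 arrays spanned 1.73-fold, from CAMTA.1.2 up to WS.

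SWEET17 encodes a facilitator of the vacuolar membrane that carries fructose. It was dim on all arrays, with 58.6 on CAMTA.6.2, 23.0 on CAMTA.1.2, 22.5 on CAMTA.1, 17.9 on WS and 23.2 on Col-0. CAMTA.6.2 alone stood apart, at 2.52-fold above the next array, Col-0. The other 4 arrays lay at or just above the floor and have no usable order.

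ATSPS4F encodes a sucrose-phosphate synthase, the enzyme that makes sucrose-phosphate from UDP-glucose and fructose-phosphate. It had intensities of 14.8 on the CAMTA.6.2 array, 104 on CAMTA.1.2, 16.6 on CAMTA.1, 89.1 on WS and 101 on Col-0. CAMTA.6.2 and CAMTA.1 were under the floor, and the other arrays were within 1.17-fold of one another. The share of all probe sets that part the arrays in this way was not computed. The lowest of the high arrays, WS, was at least 4.92-fold above the floor that bounds the low ones. In Affymetrix naming, probe sets with the suffix _s can take signal from several similar transcripts. The probe sets of MCCA, ATSPS4F and AT2G20670 carry it, so their levels may include close relatives. The same limit holds for several other genes named below, among them LHB1B2, AT1G62660, TMT1, AT3G01190, PORB and LHCB4.3.

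The CAMTA.6.2 line was set against Col-0 to see how a plant with an insertion named for a CAMTA gene differs from its accession. All 6 genes were 2-fold or more apart. AT2G30600 was 7.42-fold, AT2G20670 6.68-fold, MCCA 5.81-fold, AT1G54740 5.00-fold and SWEET17 2.52-fold higher in the line. ATSPS4F was at least 5.59-fold lower. Among the 5313 probe sets above the floor on either array, 5.38% were 2-fold higher and 6.47% lower. Ordered by size among them, AT2G30600 was the 13th largest of the differences toward CAMTA.6.2, AT2G20670 the 15th, MCCA the 18th, AT1G54740 the 22nd and SWEET17 the 124th. ATSPS4F was 25th among those toward Col-0. The median log2 difference of the 6 genes was 2.43, against 0.05 for these probe sets. That contrast was used to pick the genes, and the numbers describe the pick.

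The same genes were set against the CAMTA.1.2 array, which is also from a T-DNA line in Col-0, to see whether the differences rest on the Col-0 array. This setting was added after the data were seen. All 6 genes were again 2-fold apart in the same directions. The CAMTA.6.2 array is in both comparisons, and the genes were chosen mostly by its difference from Col-0. The shared directions therefore follow in large part from the choice and give no separate support. AT2G20670 was 11.9-fold, MCCA 8.27-fold, AT1G54740 6.81-fold, AT2G30600 3.06-fold and SWEET17 2.54-fold higher in CAMTA.6.2, and ATSPS4F at least 5.74-fold lower. Of the 5290 probe sets above the floor on either of these arrays, 6.14% were 2-fold higher and 6.33% lower. On its brighter probe set AT2G30600 is the member whose size changed most, because it was 2.42-fold higher on CAMTA.1.2 than on Col-0. On its dimmer probe set it was 1.66-fold higher there, a smaller change than that of AT2G20670, which was 1.79-fold lower.

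The CAMTA.1.2 line against Col-0 left 5 of the 6 genes within 2-fold. AT2G30600 was 2.42-fold higher on its brighter probe set and 1.66-fold on its dimmer one, and no member was 2-fold lower. Of 5194 probe sets, 0.635% were 2-fold higher and 2.43% lower. AT2G20670, at 81.1 against 145, was 1.79-fold lower, MCCA 1.42-fold lower and AT1G54740 1.36-fold lower. SWEET17 differed by -0.01 and ATSPS4F by 0.04 in log2. AT2G20670, MCCA and AT1G54740 were each at least 5.00-fold apart in the other direction in the CAMTA.6.2 line. Both comparisons use the Col-0 array, so their values are given side by side and not as a relation.

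The CAMTA.1 line against WS shares no array with the comparisons above. The members were chosen with the values of these arrays known too, so it is no independent check. ATSPS4F was at least 4.92-fold lower on the CAMTA.1 array, AT1G54740 was 2.38-fold higher, with 135 against 56.9, and MCCA 2.23-fold higher, with 90.8 against 40.6. Of 5300 probe sets above the floor on either array, 3.75% were 2-fold higher and 5.77% lower. The other 3 genes were within 2-fold, and AT2G20670 was 1.33-fold lower. AT2G30600 was 1.34-fold higher, and SWEET17 at least 1.24-fold higher next to the floor. The median log2 difference of the 6 genes was 0.37, against 0.09 for these probe sets. MCCA fell short of 2-fold with a floor at the 60th percentile, at a log2 difference of 0.98, and with a pseudocount of 32, at 0.76. With that pseudocount AT1G54740 was also short of it, at 0.91.

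WS was set against Col-0 to see how far the accession alone moves these genes. AT2G20670 was 2.51-fold higher on the WS array, with 364 against 145, and no other member was 2-fold apart on its brighter probe set. Of 5285 probe sets, 2.48% were 2-fold higher and 3.99% lower. The dimmer probe set of AT2G30600 was 2.03-fold higher, at 39.9 against 19.6, and the brighter one 1.42-fold. AT1G54740 was 1.43-fold and MCCA 1.22-fold higher, ATSPS4F 1.13-fold lower, and SWEET17 at least 1.28-fold lower next to the floor. For AT2G20670 the CAMTA.1 array, at 273, thus lay nearer to Col-0 than the WS array did.

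**Figure D2:**
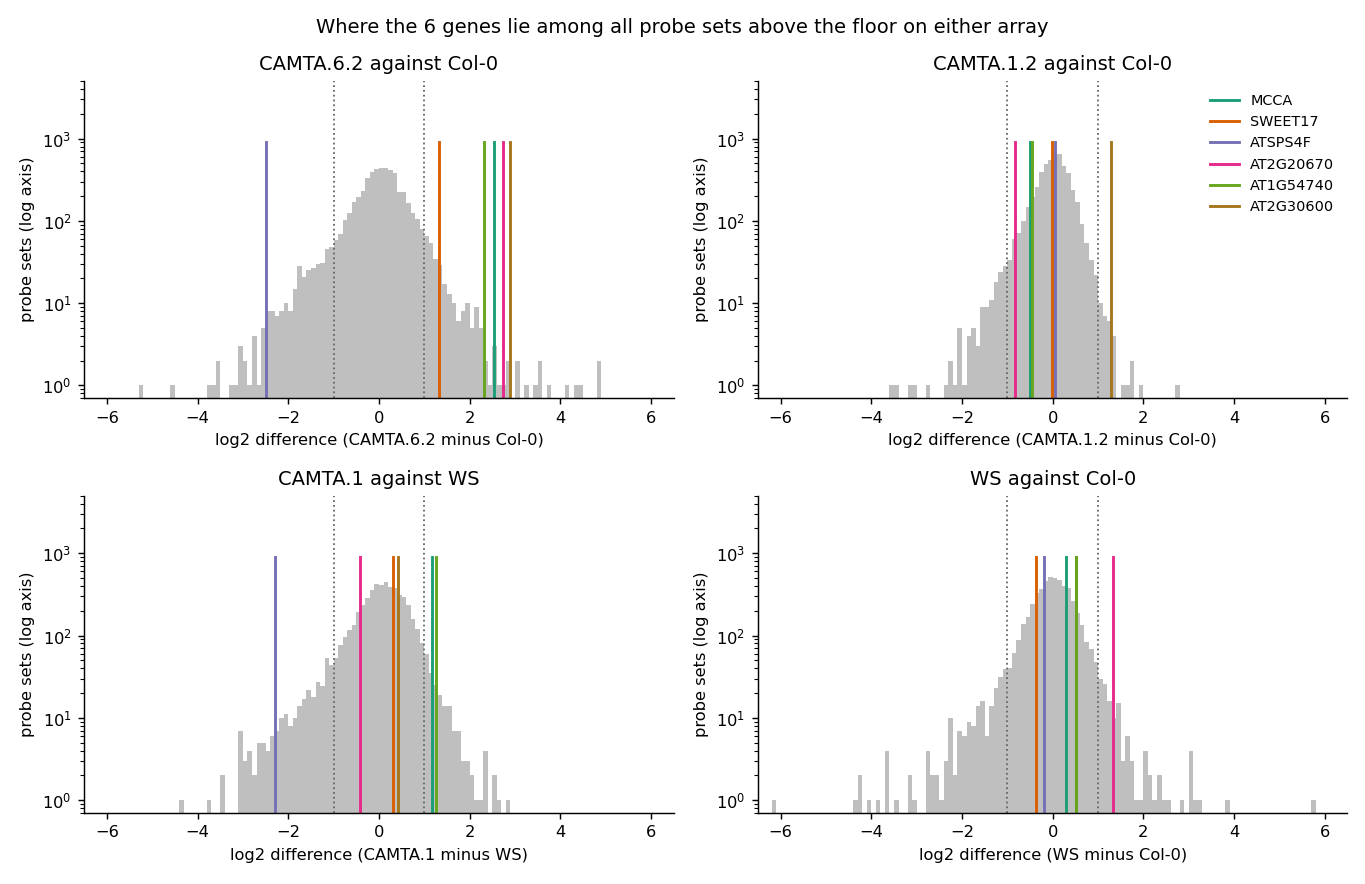
Number of probe sets (log axis) by log2 difference in each comparison, over probe sets above the floor on either array, with the 6 genes as coloured lines and 2-fold as dotted lines. In CAMTA.6.2 against Col-0 all 6 genes lie outside the dotted lines, while 1 does in CAMTA.1.2 against Col-0, 3 in CAMTA.1 against WS and 1 in WS against Col-0.

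The members were compared with one another by the root mean square difference of their log2 profiles, each centred on its own mean over the 5 arrays. MCCA and AT1G54740 were the closest pair, at 0.19, nearer than the 2 probe sets of AT2G30600 were to each other, at 0.42. AT2G20670 lay 0.55 from MCCA and 0.59 from AT1G54740. SWEET17 lay nearest to the brighter AT2G30600 probe set, at 0.53. ATSPS4F was between 1.63 and 2.25 from every other member, and was under the floor on CAMTA.6.2, where they were highest. It was under the floor on CAMTA.1 too. There only MCCA, AT1G54740 and the dimmer AT2G30600 probe set had their second highest value. A typical probe set above the floor departed by 0.26 from its own mean, and the members by 0.59 for SWEET17 and by 0.98 to 1.21 for the others. The members were chosen by their values on these arrays. Their large departures, and the closeness of those high on CAMTA.6.2, therefore follow in part from the choice.

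Among 2304 other named genes above the floor on an array, those with the nearest profiles over the 5 arrays were taken, 3 for each member. AT2G33850 was nearest to AT1G54740, at a root mean square difference of 0.15, and to MCCA, at 0.24. It read 428 on CAMTA.6.2, 77.4 on CAMTA.1.2, 314 on CAMTA.1, 126 on WS and 110.4 on Col-0. The peroxidase gene AT2G38390 came near both as well, at 0.30 and 0.43. PORB, which encodes an enzyme of chlorophyll synthesis, lay 0.36 from MCCA, and AT1G75800 lay 0.40 from AT1G54740.

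Nearest to AT2G20670 was AT3G15450, at 0.52, and it is itself on the list of sugar-repressed and dark-induced genes. AT1G23680 and AT1G52070 followed at 0.62 and 0.66. For SWEET17 the nearest were AT3G47800 at 0.09, AT2G19970 at 0.12 and 3xHMG-box1 at 0.13. Near ATSPS4F were the subtilase gene AT4G21650 at 0.25, the light-harvesting gene LHCB4.3 at 0.27 and AT1G70000 at 0.29. AT2G30600 had AT2G42040 at 0.41, AT3G54880 at 0.42 and the thionin gene THI2.2 at 0.43. Only on CAMTA.6.2 did 3xHMG-box1, at 50.1, and THI2.2, at 74.9, exceed the floor. Their other arrays were set to the floor, so their closeness to a member follows in part from the floor and nothing is read from it. The distances rest on 5 arrays and only rank the candidates.

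Other genes of carbon starvation were taken from a list of 37 sugar-repressed or dark-induced loci, of which 7 had a probe set and 4 were not members. On the CAMTA.6.2 array 3 of these 4 were at least 2-fold higher than on Col-0, and none was lower, where 5.38% of probe sets above the floor on either array were 2-fold higher and 6.47% lower. AT2G32150, of the haloacid dehalogenase-like hydrolase family, was 3.26-fold higher, with 510.3 on CAMTA.6.2, 133 on CAMTA.1.2, 108 on CAMTA.1, 115 on WS and 157 on Col-0. It stood apart on the CAMTA.6.2 array, with the other arrays close together. AT3G15450, annotated as similar to an aluminium-induced protein, was 2.61-fold higher, with 2330.5 on CAMTA.6.2, 491 on CAMTA.1.2, 1485 on CAMTA.1, 1384 on WS and 894 on Col-0. Both arrays labelled WS lay above Col-0, as for AT2G20670.

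AT4G27450, of the same protein family as AT3G15450, was 2.04-fold higher, with 323 on CAMTA.6.2, 116 on CAMTA.1.2, 379 on CAMTA.1, 269.7 on WS and 158 on Col-0. Its highest array was CAMTA.1. AT4G39780, a transcription factor gene of the AP2/ERF family, was 1.22-fold higher in CAMTA.6.2 and 2.49-fold lower in CAMTA.1 than in WS, with 30.5 against 76.0. The 4 genes had a median log2 difference of 1.21 for CAMTA.6.2 against Col-0, where the named genes above the floor on either array had 0.07. For CAMTA.1.2 against Col-0 the median was -0.34 against 0.03, for CAMTA.1 against WS 0.00 against 0.10, and for WS against Col-0 0.70 against 0.03. These genes were not part of the choice of members, but the list was drawn up with results of these arrays known.

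Branched-chain amino acid breakdown was represented by 7 of 22 listed loci, MCCA among them. MCCA was the single one at 2-fold in any of the 4 comparisons, higher in CAMTA.6.2, where 5.38% of probe sets were 2-fold higher, and in CAMTA.1, where 3.75% were. ETFQO, which passes electrons from this pathway to ubiquinone, came next, at 1.99-fold higher for CAMTA.6.2 against Col-0, with 72.4 on CAMTA.6.2, 39.1 on CAMTA.1.2, 59.5 on CAMTA.1, 42.1 on WS and 36.4 on Col-0. Its array order began with CAMTA.6.2 and CAMTA.1, as for MCCA, but all its arrays were within 2-fold, so the order is not secure. MCCB, the other subunit of the carboxylase, was 1.81-fold higher, with 39.3 on CAMTA.6.2, 29.7 on CAMTA.1.2, 36.8 on CAMTA.1, 25.7 on WS and 21.7 on Col-0, all near the floor. The 2 subunits of the enzyme thus had CAMTA.6.2 and CAMTA.1 as their highest arrays, but the arrays spanned 8.27-fold for MCCA and 1.81-fold for MCCB. The order for MCCB, with 36.8 on CAMTA.1 and 29.7 on CAMTA.1.2, is therefore not secure. The dehydrogenase subunit gene AT1G21400, the lyase gene AT2G26800, ALDH6B2 and D2HGDH differed by -0.22 to 0.30 in log2 for CAMTA.6.2 against Col-0. The list's median log2 difference was 0.30 in that comparison, beside 0.07 over the named genes above the floor, and 0.40 for CAMTA.1 against WS, beside 0.10. Both medians are the value of ALDH6B2, which is a bound next to the floor, and both were 0 with the floor at the 60th percentile. For CAMTA.1 against WS 3 of the 7 were lower, with -0.78 for AT2G26800, -0.30 for D2HGDH and a bound of -0.31 for AT1G21400.

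Sugar transporters were represented by 4 of 31 loci. TMT1, a carrier that loads monosaccharides into the vacuole, had 268 on CAMTA.6.2, 202 on CAMTA.1.2, 420.3 on CAMTA.1, 278 on WS and 132 on Col-0. It was 2.04-fold higher in CAMTA.6.2 and 2.11-fold higher in WS than in Col-0, and its other probe set gave 1.77-fold for CAMTA.6.2. On the deposited scale the CAMTA.6.2 difference falls short of 2-fold on both probe sets. Unlike SWEET17, TMT1 was highest on the CAMTA.1 array and lowest on Col-0. TMT2, its relative, was at most 1.21-fold apart in the 4 comparisons. SAG29, which is also called SWEET15 and belongs to the family of SWEET17, was at 31.3 on CAMTA.6.2, 26.7 on CAMTA.1.2, under the floor on CAMTA.1, 39.7 on WS and 23.7 on Col-0. It was at least 2.19-fold lower on CAMTA.1 than on WS, and within 2-fold elsewhere.

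Sucrose metabolism beside ATSPS4F had 2 measured genes. AT2G35840, a sucrose-phosphatase gene that acts directly after the synthase, had 166 on CAMTA.6.2, 276 on CAMTA.1.2, 167 on CAMTA.1, 215 on WS and 255 on Col-0. Its lowest arrays were the same as those of ATSPS4F, but it was 1.54-fold lower in CAMTA.6.2 and 1.28-fold lower in CAMTA.1, short of 2-fold. The vacuolar invertase gene AT1G62660, whose product splits sucrose, was 2.46-fold higher in CAMTA.6.2 than in Col-0, with 91.2 against 37.1, and 2.00-fold higher in WS, with 74.2 against 37.1. Of 22 starch loci 2 were measured and neither was 2-fold apart. APL3 was at or under the floor on all arrays but Col-0, at 20.0, and SBE2.2 was 1.44-fold higher in CAMTA.6.2. No probe set named any of the 18 sugar signalling loci alone, so they were not analysed here.

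**Figure D3:**
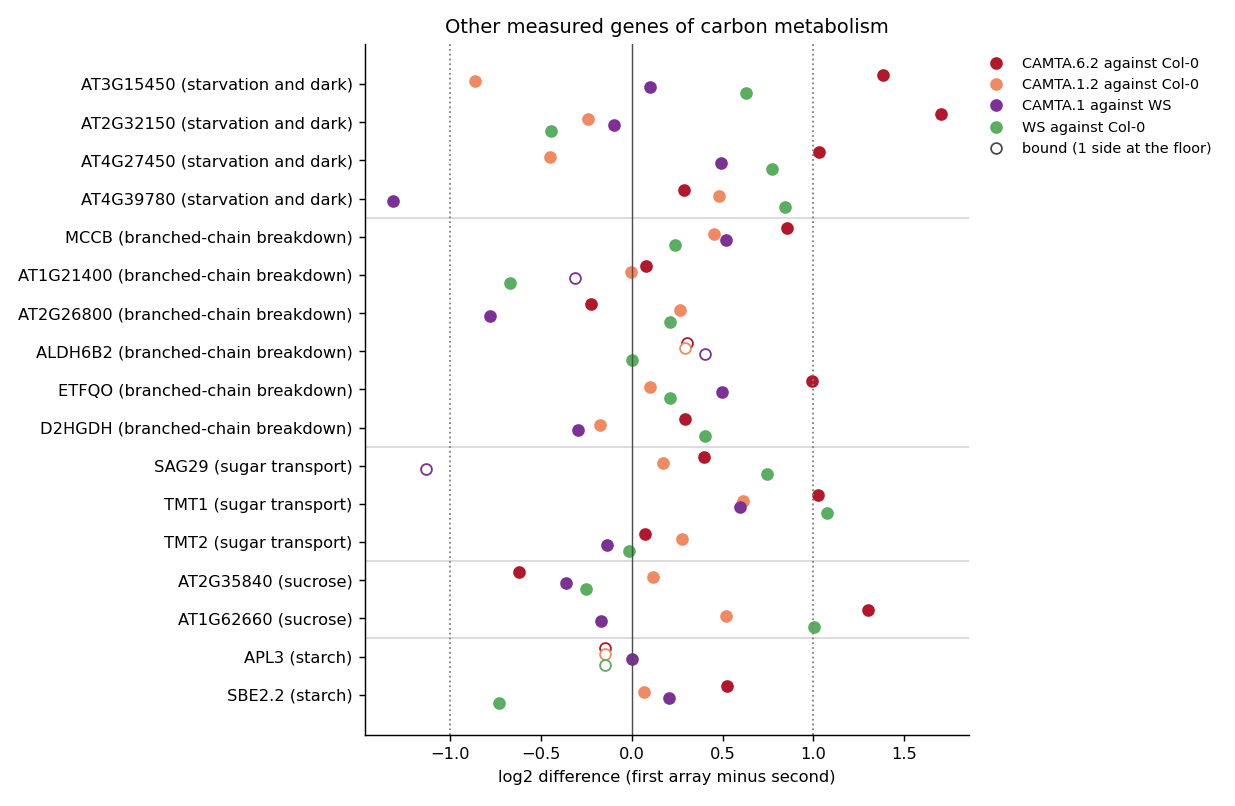
Log2 difference (first array minus second) of the 17 measured genes of 5 carbon metabolism lists that are not members, with 1 point per gene and comparison. Open points are bounds, points at 0 can have both arrays at the floor, and dotted lines mark 2-fold, which AT2G32150, AT3G15450, AT4G27450, AT1G62660 and TMT1 exceed for CAMTA.6.2 against Col-0. AT4G27450 and TMT1 do so only narrowly.

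Markers of organs and of time of day also moved across these arrays. Leaf photosynthesis markers, 4 of 12 measured, summed to 12882 on CAMTA.6.2, 10569.9 on CAMTA.1.2, 10834 on CAMTA.1, 7176 on WS and 9232 on Col-0, and none was at the floor. They did not move together. LHB1B2, a light-harvesting protein gene, was 5.11-fold higher in CAMTA.6.2 than in Col-0 and 4.89-fold higher in CAMTA.1 than in WS, and the photosystem I gene PSAE-1 was 2.02-fold higher in CAMTA.6.2. The carbon fixation genes PRK and RCA had log2 differences of -0.65 and -0.14 for CAMTA.6.2 against Col-0, and of -0.21 and 0.20 for CAMTA.1 against WS. Root markers, 3 of 10, summed to 354, 151, 399, 339 and 172 in the same array order, with AT4G26010 counted at the floor on CAMTA.1.2 and Col-0. The root peroxidase gene AT3G01190 was 2.93-fold higher in CAMTA.6.2 and 5.49-fold higher in WS than in Col-0. AT4G26010 was at least 2.05-fold higher in CAMTA.6.2 and at least 2.39-fold higher in WS than in Col-0, and AT5G17820 was 1.93-fold and 1.42-fold higher. Of the senescence markers, 2 of 10 were measured. WRKY53, a transcription factor gene of senescence and defence, was under the floor on the 3 line arrays, against 43.2 on WS and 64.0 on Col-0. On CAMTA.1 the other one, SAG29, was under the floor too. Of 16 clock and output loci 2 were measured. CCL was at 3442 on CAMTA.6.2 and 2552 on Col-0, which is 1.35-fold higher in the line. The clock gene GI, whose transcript peaks late in the day, was at 353 on CAMTA.6.2, 118 on CAMTA.1.2, 160.5 on CAMTA.1, 122 on WS and 110.3 on Col-0. For CAMTA.6.2 against Col-0 this probe set gave 3.20-fold. Its other probe sets gave at least 4.39-fold and 5.57-fold, or were under the floor on all arrays. GI was thus highest on the array where 5 of the 6 members were highest. That array was the highest for 22.9% of the probe sets above the floor somewhere. Nothing is read from the match, since the members were chosen mostly by the difference between that array and Col-0. The 3'/5' signal ratio of the ubiquitin control was 3.57 on CAMTA.6.2, 2.68 on CAMTA.1.2, 3.32 on CAMTA.1, 2.28 on WS and 2.64 on Col-0. That of the GAPDH control had another order, with 1.78 on CAMTA.6.2, 1.94 on CAMTA.1.2, 1.29 on CAMTA.1, 1.38 on WS and 1.64 on Col-0. The part of organ makeup, hour of harvest or RNA quality in the members' differences was not tested.

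The sizes of the members' differences depended on the processing to unequal degrees. SWEET17 was 2-fold higher in CAMTA.6.2 than in Col-0 with the floor at 18.1. With the floor at the 60th percentile its log2 difference was 0.37, and with a pseudocount of 32 it was 0.71. Over the 9 alternatives AT2G20670 ranged from 2.50 to 3.58, MCCA from 1.79 to 3.05 and AT1G54740 from 1.69 to 2.77, where the low ends came from the pseudocount and the high ends from the CAMTA.1.2 array in place of Col-0. AT2G30600 ranged from 1.62, with that array, to 3.18, with the mean over its 2 probe sets. ATSPS4F ranged from -2.78 with the floor at the 20th percentile to -1.16 with it at the 60th. With quantile normalization AT2G20670 was at 2.66, and as deposited at 2.69. For CAMTA.1 against WS, ATSPS4F stayed 2-fold lower under all 8 alternatives, a 3-fold threshold among them, at -2.43 to -1.02, where the value nearest 0 came from the floor at the 60th percentile and is a bound.

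**Figure D4:**
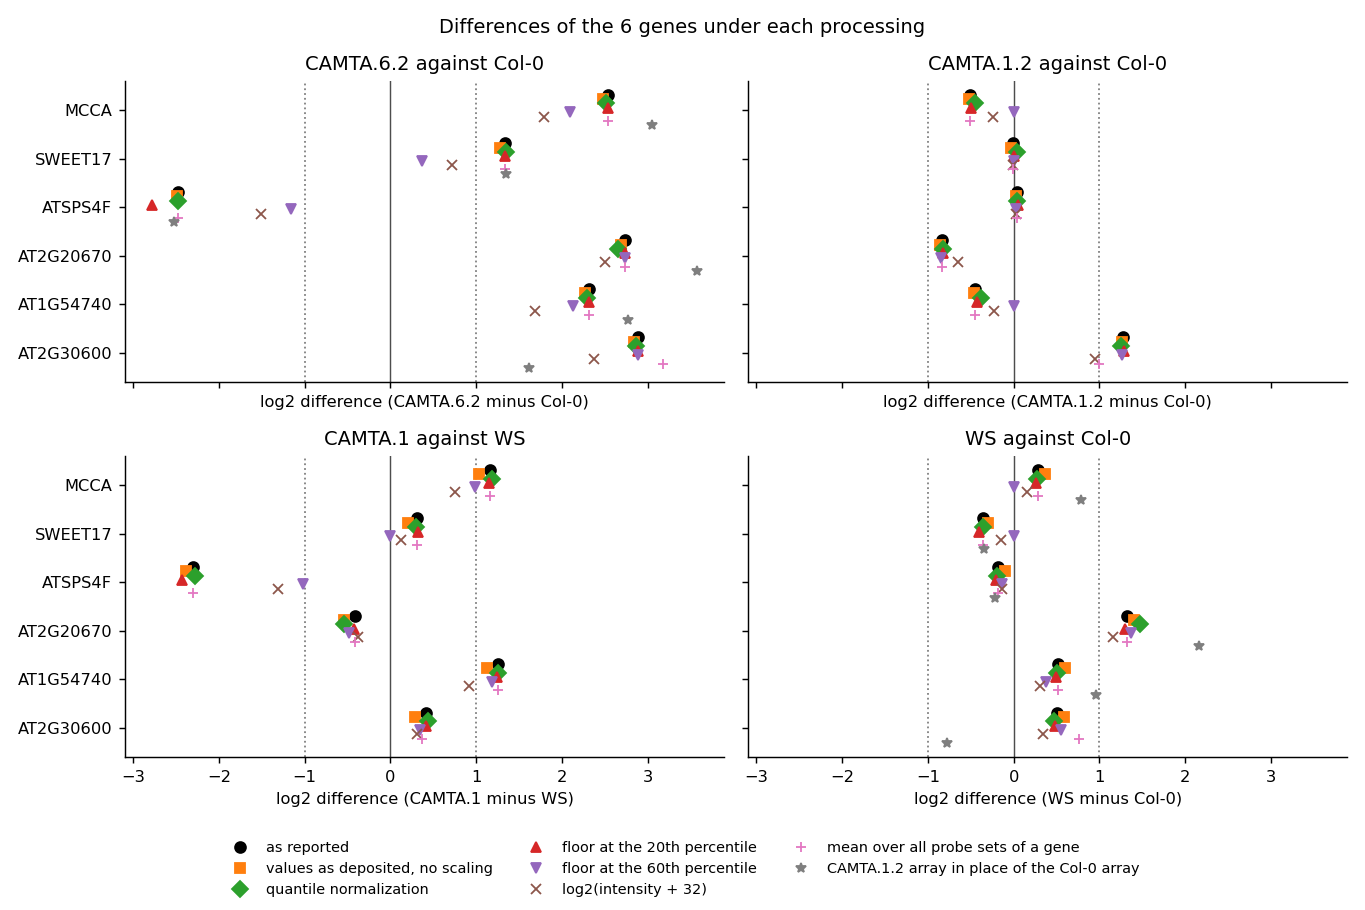
Log2 difference of the 6 genes in each comparison (first array minus second) under each way of processing, with the reported value in black and 2-fold as dotted lines. For CAMTA.6.2 against Col-0 all points but 2 of SWEET17 lie outside the dotted lines, on the side of the reported value.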

How the data were processed

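The deposited table gives, for each array, the linear intensity of every probe set. From the values, the 2% trimmed mean of every array was close to 100, so the authors had scaled the deposited intensity values. How probes were summarised is not stated in the labels. Of 8297 probe sets, 50 controls were left out. The floor of 18.1 is the 40th percentile of all values. Arrays were brought to 1 median log2 value over the 4245 probe sets that exceeded the floor throughout, lower values were then raised to the floor, and log2 differences were computed. No pair of arrays was identical. Probe sets were named by the platform annotation, with symbols taken by gene ID from the table of assembly TAIR10.1, which matched 3784 of the 3794 probe sets naming 1 gene. Of the other probe sets 70 named several genes and 4383 none. Where probe sets shared a gene, the brightest on average stood for it. Of 201 loci in 11 lists, 34 were measured. Named were the members, list genes at 2-fold, their measured pathway partners and the 3 nearest profiles per member. The members and lists were chosen with earlier results of these data known. With 1 array per group no test was made. Alternatives were the deposited scale, quantile normalization, floors at the 20th and 60th percentile, a pseudocount of 32, a threshold of 3-fold, the mean over probe sets, probe sets naming several genes, and CAMTA.1.2 in place of Col-0. The steps were tested on simulated data with changes set only in probe sets well above the floor, so that test does not cover levels near it. Python 3.11.15 with numpy 2.4.6, pandas 2.3.3, scipy 1.17.1 and matplotlib 3.10.9 was used.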

Additional observations from a re-analysis of the deposited data

Results flagged for a closer look

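For MCCA, SWEET17, ATSPS4F, AT2G20670 and AT1G54740 a line differed from its control in one direction and another line in the opposite direction. The rule set no size for these differences. The share of all probe sets with such opposite signs was not computed, so nothing is read from the number of genes. With 1 array per group these differences between lines were not tested. For CAMTA.6.2 and CAMTA.1.2, both against Col-0, the log2 differences lay 3.05 apart for MCCA, 1.35 for SWEET17, -2.52 for ATSPS4F, 3.58 for AT2G20670 and 2.77 for AT1G54740. These 2 comparisons share the Col-0 array, which cancels. The gaps are therefore the differences of CAMTA.6.2 from CAMTA.1.2 given above and no further result. Between the CAMTA.1.2 and the CAMTA.1 line, each against its own accession, the gap was -1.67 for MCCA, -0.32 for SWEET17, 2.34 for ATSPS4F and -1.70 for AT1G54740. AT2G20670 was higher in CAMTA.6.2 and lower in CAMTA.1 than in its control, with a gap of 3.16. The CAMTA.1.2 values of SWEET17 and ATSPS4F, at -0.01 and 0.04, are close to 0, so their direction carries little. Both gaps of ATSPS4F and the gap of -0.32 for SWEET17 involve an array at the floor, so they are lower limits on the size.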

How the results depend on the processing

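Of the members' log2 differences in the 4 comparisons, 193 of the values recomputed under an alternative stayed on their side of the threshold, 11 fell short of it, and no called value changed sign. The count of members at 2-fold in CAMTA.6.2 against Col-0 stayed within 1.5 times of 6 under every alternative run. Elsewhere a pseudocount of 32 left 0 members for CAMTA.1.2 against Col-0 and 1 for CAMTA.1 against WS, and a 3-fold threshold left 0 and 1, and 0 for WS against Col-0. Probe sets past the threshold numbered 630 for CAMTA.6.2, 159 for CAMTA.1.2, 505 for CAMTA.1 and 342 for WS against their controls. In that order they were 1089, 506, 909 and 758 with the floor at the 20th percentile, 397, 86, 320 and 208 with it at the 60th, 344, 58, 249 and 163 with the pseudocount, and 217, 32, 155 and 116 at 3-fold. Fewer or more values near the floor enter these counts by construction. For CAMTA.1 against WS, the median taken over the 4245 probe sets that no array had under the floor was 0.00 as deposited and 0.13 once scaled, and the share higher of its 2-fold probe sets was 25.8% as deposited and 39.4% scaled. For WS against Col-0 that share was 48.7% as deposited and 38.3% scaled. No member is named by a probe set with several genes, so including those changed nothing. No paired analysis was possible because each group had 1 array, and no array could be left out. Levels near the floor, such as SWEET17 on 4 arrays, have no usable order.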
